A study of Mus musculus with 9 samples.

Results

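The 39 genes described here encode the machinery of mitosis: the cyclin-dependent kinase engine, the Aurora and Polo kinases, the spindle checkpoint, the kinetochore, the mitotic kinesins and the proteins of the spindle and midzone. They were chosen by name as a list of mitotic genes, and all 39 had at least 1 probe on the array whose accession maps to the symbol. They are 39 of the 26866 features tested. No measured value was used to pick them, although the list was drawn up with earlier results of these arrays known.

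The cells were J1 mouse embryonic stem cells, a single line of the 129S4/SvJae strain, adapted to gelatin and grown without feeder cells. LIF (leukaemia inhibitory factor), at 1000 U/mL in medium with serum replacement, was present in every group. For 24 h, 3 samples received 3 µM CHIR99021, which blocks GSK3 kinase activity and so stabilises beta-catenin, 3 received 1 mM AICAR, which is phosphorylated inside cells to a mimic of AMP that activates AMP-activated protein kinase, and 3 received the solvent DMSO. Total RNA of each sample was hybridised to its own single-colour Agilent array, and the study asked which genes each compound changed. Whether the replicates were grown as separate cultures is not stated, and the p-values therefore reflect only sample-to-sample spread, part or all of which may be technical.

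Mitotic genes are transcribed mainly in G2 and M, so the mRNA of a growing culture follows the share of cells in those phases as well as the output of each cell. In bulk RNA, fewer cells in G2 or mitosis and less mRNA per cell cannot be told apart. Entry into mitosis is driven by cyclin B bound to Cdk1, which Cdc25 phosphatases switch on. The spindle assembly checkpoint holds the anaphase-promoting complex (APC/C) until every kinetochore is attached, after which securin and cyclin B are destroyed, sister chromatids part and the midzone directs cytokinesis. Embryonic stem cells cycle fast, with a short G1, and express these genes at high levels.

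Values are levels on a log2 scale on which 0 is the 75th percentile of the array's signals, so that 1 unit is a 2-fold step. Changes are differences of these levels with the standard error of the limma fit, and a gene was called when its adjusted p, over all 26866 features, was under 0.05. Each group holds 3 arrays, and this number limits the precision. Between 62.8% and 67.2% of spots were well above background on each array, and arrays of a group correlated at 0.995 to 0.997. Each group lay on its own slide, so slide and treatment cannot be told apart. The 10 stem cell markers were all tested and summed to 554 to 579 times the 75th percentile signal in CHIR99021 cells, 566 to 608 in AICAR cells and 569 to 585 in DMSO cells. Of 12 fibroblast markers, 9 were tested and summed to only 2.66 to 2.86 in CHIR99021 cells, 3.99 to 4.80 in AICAR cells and 2.72 to 2.90 in DMSO cells, and Lox, Postn and Fap were too dim to test. The fibroblast sum was thus higher in AICAR cells, and its part in the AICAR results was not tested.

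All 39 genes were well above background on all 9 arrays, no probe of theirs was saturated, and 37 of them averaged above the 75th percentile. Their mean levels over the arrays ran from -1.98 to 6.50, with a median of 3.57. Of the 39, 29 had 1 probe and 10 had several, and the brightest probe was tested.

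With CHIR99021, 24 mitotic genes fell, 4 rose and 11 were not called. Over all features, 20.5% fell and 30.4% rose, and 51% were called in either direction. The median change of the 39 genes was -0.24, against 0.07 for all features and 0.05 for the 11165 features above the 75th percentile, of which 20.3% fell and 32.2% rose. Without DMSO replicate 1, 2 rose and 21 fell, against 7116 and 4740 of all features. The falls were small: the deepest was -0.55, and Aurkb, which rose, was the single member called with a change of at least 1.5-fold, a size reached by 19.5% of all features. In 32 of the 39 genes the CHIR99021 and DMSO arrays did not overlap, against 63.2% of all features.

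With AICAR, 19 mitotic genes fell, 5 rose and 15 were not called. Over all features, 29.6% fell and 30.9% rose, and 60.5% were called in either direction. Of the features above the 75th percentile, to which 37 of the 39 genes belong, 42.2% fell with AICAR and 24.7% rose, the first share being near the members' share of 48.7%. The median change was -0.10, against 0.03 for all features and -0.10 for the bright ones, and it turned to 0.0014, 0.00047 and 0.037 under quantile normalization, the authors' series matrix and spike-in scaling. It was -0.15 without AICAR replicate 1. The AICAR changes were fewer in number but some were larger: Aurkb and Cdc25b rose, and Bub3 and Plk1 fell, by at least 1.5-fold, a size reached by 27% of all features. The AICAR and DMSO arrays did not overlap in 26 of the 39 genes, against 67% of all features.

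Set against each other, CHIR99021 and AICAR cells differed in 28 of the 39 genes, 14 higher and 14 lower in CHIR99021 cells. Among all features, 36.2% were higher and 24.6% lower in CHIR99021 cells, or 60.8% in either direction, and among the features above the 75th percentile 50.2% were higher and 19.7% lower. This split moved with the scaling: 6 were higher and 21 lower under quantile normalization and in the series matrix, and 2 were higher and 17 lower under spike-in scaling. Of all features, 7820 were higher and 7634 lower under quantile normalization, and 4009 and 7936 under spike-in scaling. The arrays of the 2 treatments did not overlap in 30 of the 39 genes, against 65.3% of all features.

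**Figure D1:**
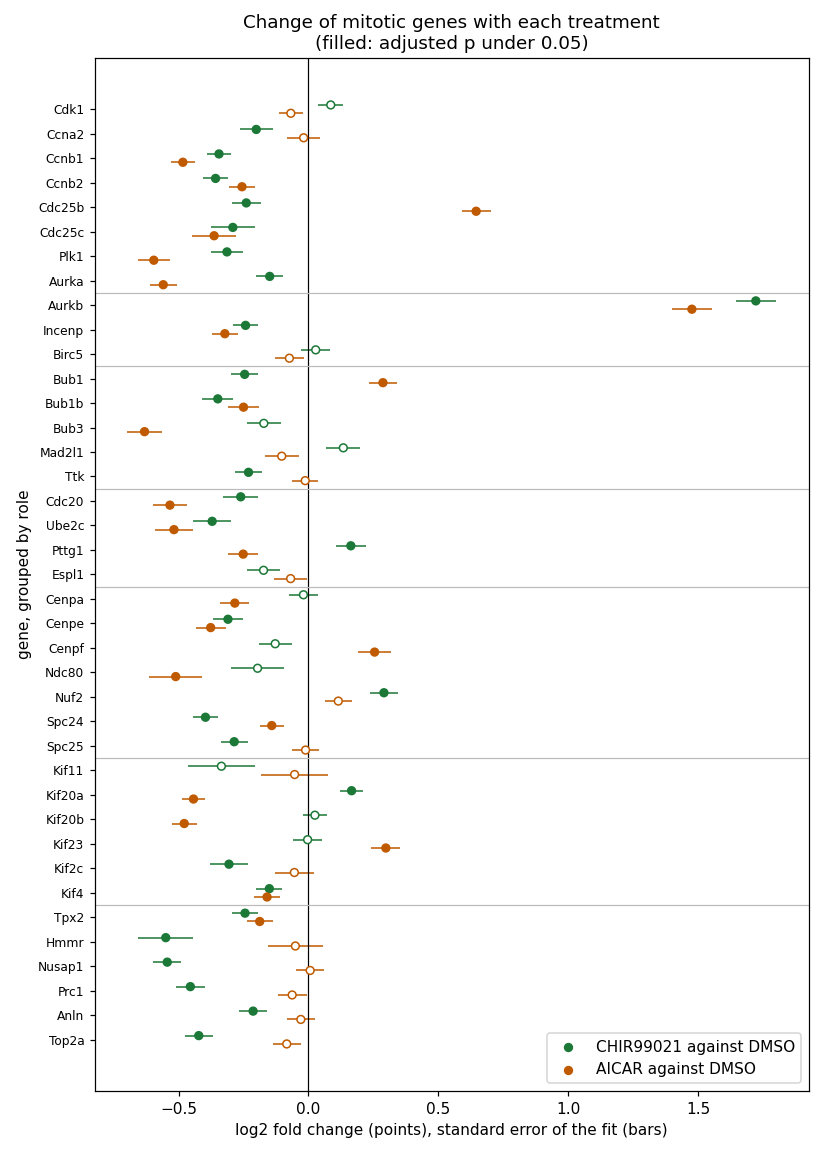
Log2 fold change of each of the 39 mitotic genes (rows, grouped by role) with CHIR99021 (green) and AICAR (orange), each against DMSO; bars are the standard error of the fit with 3 arrays a group, and filled points have an adjusted p under 0.05. The green points lie mostly left of 0, with 24 called there, Aurkb stands far to the right in both colours, and in the lowest block (Tpx2 to Top2a) all 6 green points are filled and left of 0 while 1 orange point, Tpx2, is filled.

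Promoters of G2 and M phase genes are known to share a short element, the cell cycle genes homology region (CHR), which binds the DREAM and MuvB complexes, and upstream CCAAT boxes, which bind NF-Y. RefSeq windows of 300 bases, 250 before to 50 after the gene start in build GRCm38.p6, were given for 32 of the 39 genes and searched on both strands. The hexamer TTTGAA was in 23 of the 32 members' windows (71.9%), against 20.2% of 27025 genes. TTCGAA, which reads the same on both strands, was in 4 (12.5%), against 1.80%. Either hexamer lay in the last 100 bases of the window in 24 members (75%), against 6.12% of genes. CCAAT was in 23 members (71.9%), against 41.1%, and 21 members (65.6%) held both a hexamer and CCAAT, against 8.61%. A match of letters is a description and not evidence of binding.

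Promoter windows are shown for genes whose mRNA moved in different ways in the main setting. Plk1 and Cdc20 fell more with AICAR, and Prc1 fell with CHIR99021. Ccnb2 fell with both, and Bub1 and Cdc25b moved in opposite directions with the 2 compounds. The differences of Plk1 and Cdc20 between the compounds were not called under quantile normalization, in the series matrix or under spike-in scaling. The AICAR fall of Ccnb2 was not called in those settings either. The CHIR99021 fall of Bub1 was not called under spike-in scaling. Each window is written on the gene's own strand, 5′ to 3′. The hexamer (TTTGAA or TTCGAA, either strand) and CCAAT (or ATTGG, its reverse complement) are in capitals. The Plk1 window is chr7:122159185-122159484 on the plus strand, Prc1 is chr7:80294201-80294500 on the plus strand, Bub1 is chr2:127831810-127832109 on the minus strand, and Cdc25b is chr2:131186698-131186997 on the plus strand. Cdc20 is chr4:118437294-118437593 on the minus strand, and Ccnb2 is chr9:70421505-70421804 on the minus strand.
Plk1: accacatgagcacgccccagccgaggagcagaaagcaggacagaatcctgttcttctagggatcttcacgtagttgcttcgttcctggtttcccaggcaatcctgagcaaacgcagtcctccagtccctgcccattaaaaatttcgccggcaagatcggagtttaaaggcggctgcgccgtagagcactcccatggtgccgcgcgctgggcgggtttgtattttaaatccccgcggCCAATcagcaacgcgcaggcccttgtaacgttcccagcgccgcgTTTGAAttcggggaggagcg
Prc1: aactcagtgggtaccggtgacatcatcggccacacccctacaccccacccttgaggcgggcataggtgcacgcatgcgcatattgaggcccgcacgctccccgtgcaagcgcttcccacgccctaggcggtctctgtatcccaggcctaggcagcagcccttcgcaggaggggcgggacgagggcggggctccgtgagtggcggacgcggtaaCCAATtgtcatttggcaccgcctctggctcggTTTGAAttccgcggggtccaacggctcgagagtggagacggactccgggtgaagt
Bub1: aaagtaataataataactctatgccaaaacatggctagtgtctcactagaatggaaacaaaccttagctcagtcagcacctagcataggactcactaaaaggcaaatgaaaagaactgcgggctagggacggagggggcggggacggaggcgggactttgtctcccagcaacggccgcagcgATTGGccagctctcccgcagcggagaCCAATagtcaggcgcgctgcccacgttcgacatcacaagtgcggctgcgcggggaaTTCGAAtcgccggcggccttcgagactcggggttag
Cdc25b: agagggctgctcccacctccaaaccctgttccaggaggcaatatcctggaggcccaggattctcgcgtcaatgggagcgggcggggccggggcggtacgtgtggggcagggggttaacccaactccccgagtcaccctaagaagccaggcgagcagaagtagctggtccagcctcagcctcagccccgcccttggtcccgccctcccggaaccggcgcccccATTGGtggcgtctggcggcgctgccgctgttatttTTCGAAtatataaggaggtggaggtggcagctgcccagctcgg
Cdc20: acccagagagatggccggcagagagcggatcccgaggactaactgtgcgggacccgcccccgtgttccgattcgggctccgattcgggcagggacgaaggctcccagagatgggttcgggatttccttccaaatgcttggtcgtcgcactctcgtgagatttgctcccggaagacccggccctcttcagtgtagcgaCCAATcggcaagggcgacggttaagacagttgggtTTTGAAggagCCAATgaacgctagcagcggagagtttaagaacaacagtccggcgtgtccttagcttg
Ccnb2: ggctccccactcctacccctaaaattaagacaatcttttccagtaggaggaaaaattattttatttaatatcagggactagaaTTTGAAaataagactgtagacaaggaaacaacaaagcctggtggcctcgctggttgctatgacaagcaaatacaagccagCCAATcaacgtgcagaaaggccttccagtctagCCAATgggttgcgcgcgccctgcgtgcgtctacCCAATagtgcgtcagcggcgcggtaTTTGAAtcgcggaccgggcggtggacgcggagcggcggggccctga
All 6 windows hold a hexamer within 50 bases of the start and a CCAAT box (ATTGG in Cdc25b) before it. The near hexamer is TTCGAA in Bub1 and Cdc25b and TTTGAA in the other 4, Cdc20 also has a CCAAT after its hexamer, and Ccnb2 has a second hexamer farther upstream. Nusap1, which fell with CHIR99021 (-0.54), has no match of either kind in its window at chr2:119618048-119618347 on the plus strand, and is shown for that reason.
Nusap1: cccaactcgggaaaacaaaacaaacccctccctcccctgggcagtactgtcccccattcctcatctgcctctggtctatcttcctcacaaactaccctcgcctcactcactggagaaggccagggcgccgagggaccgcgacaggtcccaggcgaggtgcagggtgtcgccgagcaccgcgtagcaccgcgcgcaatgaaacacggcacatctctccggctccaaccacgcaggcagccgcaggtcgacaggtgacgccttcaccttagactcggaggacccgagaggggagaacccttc
With CHIR99021, 16 of the 25 genes with a hexamer fell, with a median change of -0.24, and 3 of the 7 without one fell, with a median of 0.03. With AICAR the numbers were 11 of 25 and 3 of 7, with medians of -0.07 and -0.10. The difference between the sets was not tested. Over all features, 20.5% fell with CHIR99021 and 29.6% with AICAR, and above the 75th percentile 20.3% and 42.2% fell.

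**Figure D2:**
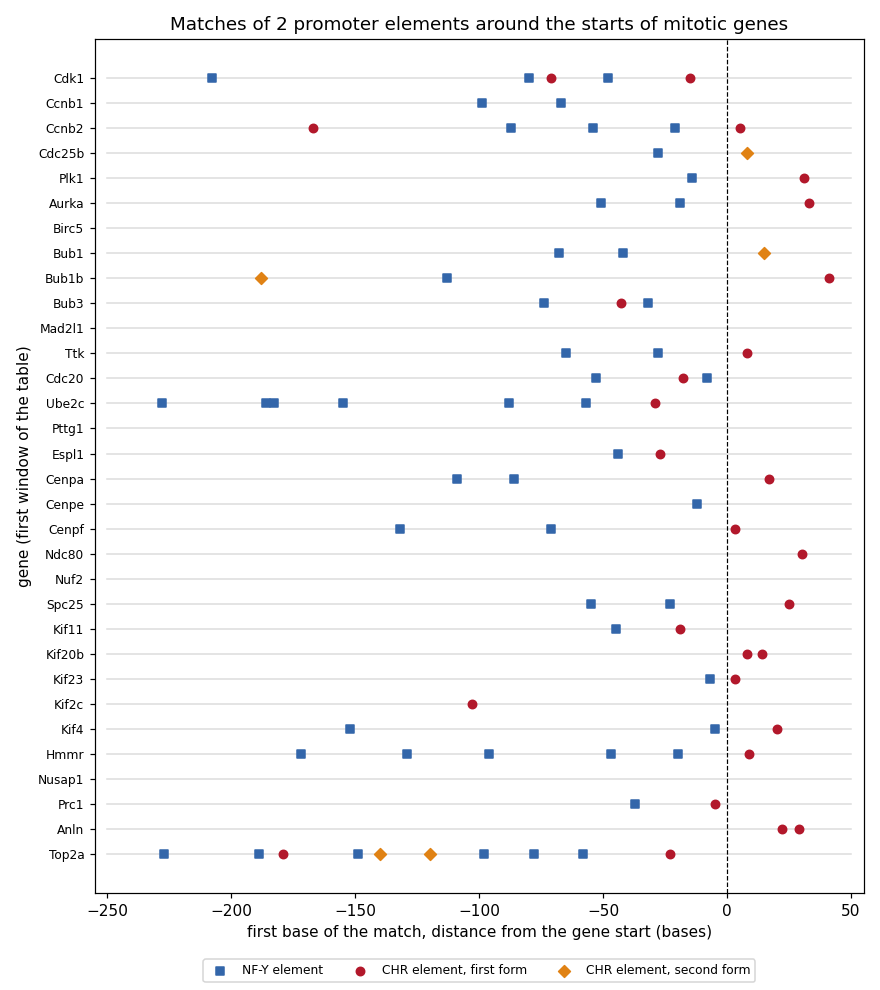
Positions of the CCAAT box (NF-Y element, blue squares) and of the 2 CHR hexamers (red circles and orange diamonds) in the window from 250 bases before to 50 after the start, for the 32 mitotic genes with a RefSeq window; the horizontal axis is the distance in bases from the start, on the gene's strand. Most hexamers lie close to the start, in the last 100 bases of the window in 24 genes, with CCAAT boxes mostly to their left.

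Of the 8 genes of the cyclin-dependent kinase engine and its entry kinases, 7 fell with CHIR99021 (median -0.27), while with AICAR 5 fell and 1 rose. Over all features, 20.5% fell and 30.4% rose with CHIR99021, and 29.6% fell and 30.9% rose with AICAR. Of the features above the 75th percentile, 20.3% fell with CHIR99021 and 42.2% with AICAR. These shares also stand beside the counts of the role groups below. Ccnb2, which encodes cyclin B2, read 5.88, 5.99 and 5.88 in CHIR99021 cells, 6.004, 6.04 and 6.01 in AICAR cells and 6.23, 6.27 and 6.32 in DMSO cells. Both sets of treated arrays lay below all DMSO arrays, with changes of -0.36 ± 0.05 (adjusted p = 0.000572) for CHIR99021 and -0.26 ± 0.05 (adjusted p = 0.00243) for AICAR, the second of which was lost under 3 of the 4 other scalings (adjusted p = 0.0509 to 0.332). Ccnb1, the cyclin B that is destroyed at anaphase, fell with both compounds under every alternative tried, with changes of -0.34 ± 0.05 and -0.48 ± 0.05. The 2 dimmer probes of Ccnb1 had smaller changes, -0.21 and -0.11 with CHIR99021, the second not called, and -0.41 and -0.38 with AICAR. Ccna2, cyclin A2, fell with CHIR99021 (-0.20 ± 0.06, adjusted p = 0.0295), a call that was lost in 6 of the 19 alternatives tried, among them spike-in scaling (adjusted p = 0.0985) and the fits without DMSO replicate 1, DMSO replicate 3, CHIR99021 replicate 1 or CHIR99021 replicate 3. Its AICAR change was -0.02, and 0.18 under quantile normalization and in the series matrix, where it was called as a rise. Cdk1 itself was not called with either compound, at 0.09 ± 0.05 and -0.07 ± 0.05, but probes of this gene disagree. Its 2 dimmer probes had changes of 1.61 and -0.32 with CHIR99021 and of 1.07 and -0.54 with AICAR, each of them called. The mean of its probes was called higher with CHIR99021 (0.46) and was not called with AICAR.

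Polo-like kinase Plk1 promotes mitotic entry, spindle assembly and cytokinesis. It read 4.99, 5.07 and 5.03 in CHIR99021 cells, 4.88, 4.67 and 4.70 in AICAR cells and 5.36, 5.36 and 5.31 in DMSO cells. The 3 groups were fully separated, with DMSO highest and AICAR lowest, and the changes were -0.31 ± 0.06 (adjusted p = 0.00389) with CHIR99021 and -0.60 ± 0.06 (adjusted p = 8.96e-05) with AICAR. Aurka, the centrosomal Aurora kinase that activates Plk1, read 4.74, 4.70 and 4.71 in CHIR99021 cells, 4.40, 4.28 and 4.24 in AICAR cells and 4.88, 4.84 and 4.87 in DMSO cells. It followed the same order, with changes of -0.15 ± 0.05 with CHIR99021 (adjusted p = 0.0441) and -0.56 ± 0.05 with AICAR (adjusted p = 4.73e-05). The CHIR99021 call of Aurka was lost in 11 of the 19 alternatives: spike-in scaling (adjusted p = 0.153), no filter on dim probes, every probe tested on its own, the replicate block, and the fits without any 1 of the CHIR99021 or DMSO arrays or AICAR replicate 2. Plk1 and Aurka were both higher in CHIR99021 than in AICAR cells, by 0.28 ± 0.06 and 0.41 ± 0.05, but the difference of Plk1 was no longer called under quantile normalization (0.07), in the series matrix (0.07) or under spike-in scaling (0.08), nor that of Aurka under spike-in scaling (0.21).

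The 2 Cdc25 phosphatases, which remove the inhibitory phosphates of Cdk1, behaved differently from each other. Cdc25b, the form that starts the activation at the centrosome, read 0.91, 1.03 and 0.92 in CHIR99021 cells, 1.90, 1.83 and 1.78 in AICAR cells and 1.25, 1.15 and 1.18 in DMSO cells. No arrays of the 3 groups overlapped: it fell by 0.24 ± 0.06 with CHIR99021 (adjusted p = 0.00841), rose by 0.65 ± 0.06 with AICAR (adjusted p = 3.16e-05), and the difference of -0.88 ± 0.06 was the largest among the 39 genes between the compounds (adjusted p = 4.94e-06). These 3 calls held under all alternatives tried. Cdc25c fell with both compounds, with changes of -0.29 ± 0.09 with CHIR99021 (adjusted p = 0.0221) and -0.36 ± 0.09 with AICAR (adjusted p = 0.0067). The first was lost without DMSO replicate 2, DMSO replicate 3 or CHIR99021 replicate 2 (adjusted p = 0.0592 to 0.0738), and the second under spike-in scaling (adjusted p = 0.127).

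The chromosomal passenger complex corrects faulty attachments and later moves to the midzone, and its 3 members moved apart. Aurkb, its kinase, read -1.31, -1.30 and -1.37 in CHIR99021 cells, -1.67, -1.58 and -1.46 in AICAR cells and -2.91, -3.11 and -3.12 in DMSO cells. In the main setting, every treated array was more than 1 log2 unit above every DMSO array. The changes of 1.72 ± 0.08 with CHIR99021 (adjusted p = 1.69e-06) and 1.48 ± 0.08 with AICAR (adjusted p = 2.33e-06) were the largest of the 39 genes in their comparisons. The size of these changes moved with the processing. Under the other scalings it ran from 1.18 to 1.66 with CHIR99021 and from 1.02 to 1.61 with AICAR, and both calls held. The gene is measured by 1 probe, which was dim but well above background on all 9 arrays. The further difference of 0.25 ± 0.08 between CHIR99021 and AICAR cells (adjusted p = 0.0248) was lost in 7 of the 19 alternatives. It shrank to 0.17 under normexp background correction and to 0.04 under spike-in scaling (adjusted p = 0.815), and was not called without CHIR99021 replicate 1 or 2 or AICAR replicate 1 or 2. Incenp, the scaffold of the complex, fell with both compounds, with changes of -0.24 ± 0.05 and -0.32 ± 0.05, the second of which was lost under spike-in scaling (adjusted p = 0.154). The other probe of Incenp, nearly as bright, had changes of -0.07 with CHIR99021, which was not called, and -0.19 with AICAR. Birc5, survivin, read 6.50, 6.62 and 6.52 in CHIR99021 cells, 6.43, 6.44 and 6.46 in AICAR cells and 6.44, 6.55 and 6.58 in DMSO cells. Its groups overlapped with DMSO, its changes were 0.03 ± 0.06 and -0.07 ± 0.06, and neither was called (adjusted p = 0.708 and 0.284), and the calls of the 3 members thus had no common direction.

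**Figure D3:**
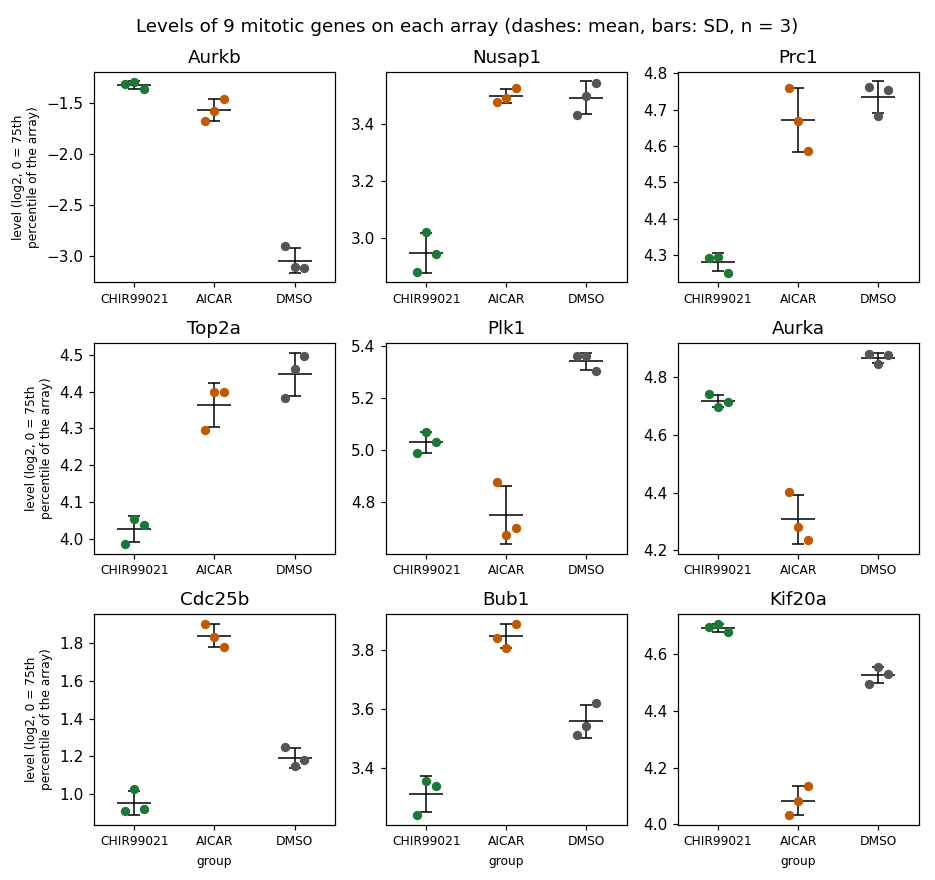
Levels of 9 mitotic genes on each of the 3 arrays of CHIR99021 (green), AICAR (orange) and DMSO (grey) cells, on a log2 scale whose 0 is the array's 75th percentile; dashes are means, bars the SD (n = 3), and each panel has its own axis range. Aurkb is high in both treatments, Nusap1, Prc1 and Top2a are low in CHIR99021 cells alone, Plk1 and Aurka are lowest in AICAR cells, Cdc25b and Bub1 are highest in AICAR cells and lowest in CHIR99021 cells, and Kif20a has the opposite order.

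In the spindle assembly checkpoint, 3 of 5 genes fell with CHIR99021, while with AICAR 2 fell and 1 rose. Bub1, the kinase that marks centromeric chromatin, read 3.24, 3.36 and 3.34 in CHIR99021 cells, 3.84, 3.81 and 3.89 in AICAR cells and 3.51, 3.54 and 3.62 in DMSO cells. As with Cdc25b, the 3 groups did not overlap, with a fall of -0.25 ± 0.05 with CHIR99021 (adjusted p = 0.00568), a rise of 0.29 ± 0.05 with AICAR (adjusted p = 0.00199) and a difference of -0.53 ± 0.05 between them. The CHIR99021 fall of Bub1 narrowly missed the threshold under spike-in scaling (adjusted p = 0.0546). Bub3, which docks Bub1 and its paralogue at kinetochores, read 4.26, 4.38 and 4.28 in CHIR99021 cells, 3.95, 3.82 and 3.77 in AICAR cells and 4.54, 4.41 and 4.49 in DMSO cells. It fell by 0.63 ± 0.07 with AICAR (adjusted p = 8.42e-05), the deepest fall of the 39 genes in that comparison, and its CHIR99021 change of -0.17 ± 0.07 was not called (adjusted p = 0.0593), although it was in 4 of the 19 alternatives, with -0.22 under quantile normalization and -0.21 in the series matrix. Bub3 and its partner Bub1 thus moved in opposite directions with AICAR.

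Bub1b, the BubR1 inhibitor of the APC/C, fell with CHIR99021 (-0.35 ± 0.06) and with AICAR (-0.25 ± 0.06), the AICAR call being lost under 3 scalings. Ttk, the Mps1 kinase at the head of the checkpoint, fell with CHIR99021 (-0.23 ± 0.05, adjusted p = 0.0063, and 0.0549 under spike-in scaling) and was at -0.01 ± 0.05 with AICAR. Mad2l1, the Mad2 protein that blocks Cdc20, was called with neither, at 0.13 ± 0.07 and -0.10 ± 0.07. Probes of Mad2l1 disagree in sign with CHIR99021, where its 2 dimmer probes had changes of -0.62 and -0.79, the second not called. With AICAR they disagree in size, the 2 dimmer probes having changes of -1.23 and -1.45, both called. The mean of the probes was called lower with AICAR (-0.93, adjusted p = 0.00258) and was not called with CHIR99021.

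Among the genes of APC/C activation and chromatid separation, Cdc20 and Ube2c fell with both compounds. Cdc20, the APC/C activator of metaphase, read 5.67, 5.77 and 5.69 in CHIR99021 cells, 5.55, 5.47 and 5.30 in AICAR cells and 5.97, 5.97 and 5.97 in DMSO cells. All treated arrays lay below all DMSO arrays, and the changes were -0.26 ± 0.07 (adjusted p = 0.0126) and -0.53 ± 0.07 (adjusted p = 0.000238). Ube2c, the ubiquitin-conjugating enzyme of the APC/C, had changes of -0.37 ± 0.07 and -0.52 ± 0.07. For both genes these calls held under every alternative tried, but the higher level of Cdc20 in CHIR99021 than in AICAR cells, 0.27 ± 0.07, shrank to between 0.01 and 0.07 under quantile normalization, in the series matrix and under spike-in scaling and was not called there.

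Pttg1, the securin that keeps separase inactive, read 6.35, 6.40 and 6.25 in CHIR99021 cells, 5.98, 5.90 and 5.88 in AICAR cells and 6.10, 6.21 and 6.19 in DMSO cells. The arrays did not overlap, but the rise of 0.16 ± 0.06 with CHIR99021 (adjusted p = 0.0459) was lost in 15 of the 19 alternatives, among them all 4 other scalings and the fits without any 1 array other than CHIR99021 replicate 3 and AICAR replicate 1. The fall of -0.25 ± 0.06 with AICAR (adjusted p = 0.00607) was lost under 3 of the scalings. Espl1, separase, was called with neither compound, at -0.17 ± 0.06 and -0.07 ± 0.06, but with CHIR99021 it was called lower in 7 of the 19 alternatives, 3 other scalings among them (-0.24 to -0.20).

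Of 7 centromere and outer kinetochore genes, 3 fell and 1 rose with CHIR99021, and 4 fell and 1 rose with AICAR. Within the Ndc80 complex, the main microtubule coupler of the kinetochore, the 4 subunits did not move alike. Spc24 read 3.06, 3.06 and 3.11 in CHIR99021 cells, 3.36, 3.26 and 3.37 in AICAR cells and 3.49, 3.45 and 3.47 in DMSO cells. It was below DMSO on every CHIR99021 array (-0.40 ± 0.05, adjusted p = 0.000249), whereas the AICAR call (-0.14 ± 0.05, adjusted p = 0.0295) was lost under all 4 other scalings, turned to 0.0014 under quantile normalization, and was lost without any 1 DMSO array or AICAR replicate 2. Spc25, its dimer partner, read 4.79, 4.73 and 4.80 in CHIR99021 cells, 4.96, 5.12 and 5.06 in AICAR cells and 5.07, 5.06 and 5.05 in DMSO cells. It fell with CHIR99021 (-0.29 ± 0.05, adjusted p = 0.00248), and its AICAR value of -0.01 ± 0.05 turned to 0.19 under quantile normalization and 0.17 in the series matrix, both called as rises. Spc24 and Spc25 were lower in CHIR99021 than in AICAR cells under every alternative tried, with differences of -0.26 ± 0.05 and -0.27 ± 0.05.

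The other dimer of that complex differed from Spc24 and Spc25. Ndc80 fell with AICAR (-0.51 ± 0.10, adjusted p = 0.00312) and was at -0.20 ± 0.10 with CHIR99021 (adjusted p = 0.149, and called lower in 3 of the 19 alternatives). Nuf2 rose with CHIR99021 (0.29 ± 0.05, adjusted p = 0.00243), was at 0.11 ± 0.05 with AICAR, and was uncertain. Its dimmer probe had changes of -0.53 with CHIR99021 and -0.42 with AICAR, both called. With CHIR99021 the change in the mean of the probes was -0.12 (adjusted p = 0.280). Cenpe, the kinetochore kinesin that carries chromosomes to the plate, fell with both compounds, with changes of -0.31 ± 0.06 and -0.38 ± 0.06, the second of which was lost under spike-in scaling (adjusted p = 0.0965). Cenpa, the histone H3 variant that defines the centromere, fell with AICAR (-0.28 ± 0.06), a call lost under 3 scalings, and was at -0.02 ± 0.06 with CHIR99021. Cenpf, a large kinetochore protein that builds up in G2, rose with AICAR (0.25 ± 0.06, adjusted p = 0.00923) and was at -0.13 ± 0.06 with CHIR99021, called lower there under quantile normalization (-0.18) and in the series matrix (-0.19).

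Of the 6 mitotic kinesins, 2 fell and 1 rose with CHIR99021, and 3 fell and 1 rose with AICAR. Kif20a, the midzone kinesin that carries the passenger complex, read 4.70, 4.70 and 4.68 in CHIR99021 cells, 4.03, 4.08 and 4.13 in AICAR cells and 4.50, 4.55 and 4.53 in DMSO cells. No arrays of the 3 groups overlapped, and it fell by 0.44 ± 0.04 with AICAR (adjusted p = 7.05e-05), while the rise of 0.17 ± 0.04 with CHIR99021 (adjusted p = 0.0155) was lost under all 4 other scalings and without DMSO replicate 1. Its relative Kif20b read 3.72, 3.70 and 3.81 in CHIR99021 cells, 3.20, 3.27 and 3.25 in AICAR cells and 3.70, 3.73 and 3.72 in DMSO cells. It fell by 0.48 ± 0.05 with AICAR (adjusted p = 6.3e-05) and was at 0.02 ± 0.05 with CHIR99021. Kif20a and Kif20b were higher in CHIR99021 than in AICAR cells by 0.61 ± 0.04 and 0.50 ± 0.05, the only 2 of the 14 higher genes whose call held under every alternative tried.

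Kif23, the kinesin of centralspindlin, rose with AICAR (0.30 ± 0.06, adjusted p = 0.00213) and was at -0.0033 ± 0.06 with CHIR99021. Kif2c, the depolymerising kinesin MCAK, fell with CHIR99021 (-0.31 ± 0.07) and was at -0.05 ± 0.07 with AICAR. The chromokinesin Kif4 was called lower with both, at -0.15 ± 0.05 and -0.16 ± 0.05. Both calls of Kif4 were near the threshold (adjusted p = 0.0373 and 0.0253). The first was lost in 7 of the 19 alternatives, among them spike-in scaling (adjusted p = 0.156) and the fits without DMSO replicate 1 or 3 or any 1 CHIR99021 array. The second was lost in 9, among them quantile normalization, the series matrix, spike-in scaling (-0.02, adjusted p = 0.893) and the fits without DMSO replicate 1 or 3 or AICAR replicate 2 or 3. Kif11, the Eg5 motor that pushes the spindle poles apart, had the widest error of the 39 genes and was called with neither compound, at -0.33 ± 0.13 (adjusted p = 0.0593) and -0.05 ± 0.13. Without CHIR99021 replicate 2, which read 1.46 against 1.09 and 1.00 on the other CHIR99021 arrays, Kif11 was called lower with CHIR99021 (-0.47, adjusted p = 0.0071). With all arrays in, it was also called lower under normexp (-0.40), quantile normalization (-0.38) and the series matrix (-0.38), and when only features well above background on all 9 arrays were tested.

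The 6 spindle, midzone and chromosome proteins all fell with CHIR99021, with a median of -0.44 and a range of medians of -0.50 to -0.44 across the scalings tried. With AICAR 1 of the 6, Tpx2, was called lower, with a median of -0.06 that turned to 0.12 under quantile normalization and in the series matrix and to 0.08 under spike-in scaling. Nusap1, which bundles spindle microtubules around chromosomes, read 2.88, 3.02 and 2.94 in CHIR99021 cells, 3.48, 3.49 and 3.53 in AICAR cells and 3.43, 3.50 and 3.55 in DMSO cells. It was low on the CHIR99021 arrays alone, with changes of -0.54 ± 0.05 (adjusted p = 0.0001) with CHIR99021 and 0.01 ± 0.05 (adjusted p = 0.926) with AICAR, the second of which was called as a rise under quantile normalization (0.16) and in the series matrix (0.15). Hmmr, a spindle pole protein and hyaluronan receptor, read 2.59, 2.65 and 2.54 in CHIR99021 cells, 3.30, 3.13 and 2.85 in AICAR cells and 3.13, 3.09 and 3.22 in DMSO cells. It showed the deepest CHIR99021 fall of the 39 genes, -0.55 ± 0.11 (adjusted p = 0.00338), and wide spread among the AICAR arrays.

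Prc1, which cross-links the antiparallel microtubules of the midzone, read 4.29, 4.30 and 4.25 in CHIR99021 cells, 4.76, 4.67 and 4.59 in AICAR cells and 4.76, 4.68 and 4.75 in DMSO cells. Top2a, the topoisomerase that untangles sister chromatids, read 3.99, 4.05 and 4.04 in CHIR99021 cells, 4.29, 4.40 and 4.40 in AICAR cells and 4.38, 4.46 and 4.50 in DMSO cells. Both were low on the CHIR99021 arrays, with falls of -0.45 ± 0.06 and -0.42 ± 0.05, and their AICAR arrays overlapped with DMSO. Anln, the anillin of the contractile ring, fell with CHIR99021 (-0.21 ± 0.05, lost under spike-in scaling at an adjusted p = 0.113) and was at -0.03 ± 0.05 with AICAR. The AICAR change of Anln was called as a rise under quantile normalization and in the series matrix (0.17 at most). Tpx2, which activates Aurora A on the spindle, fell with CHIR99021 (-0.24 ± 0.05) and with AICAR (-0.19 ± 0.05), the second call being lost under 3 scalings. Between the compounds, 5 of the 6 were lower in CHIR99021 cells, and the differences of Nusap1 (-0.55 ± 0.05), Hmmr (-0.50 ± 0.11), Prc1 (-0.39 ± 0.06) and Top2a (-0.34 ± 0.05) were called under every alternative tried.

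**Figure D4:**
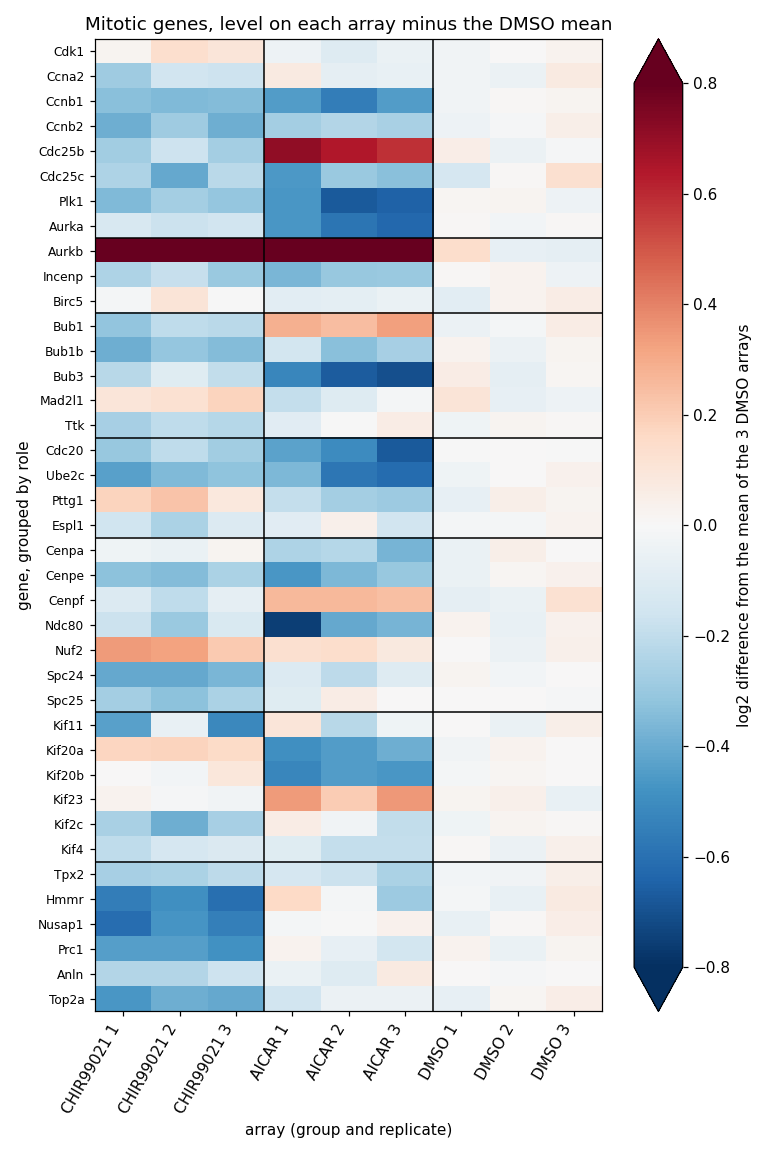
Level of each of the 39 mitotic genes (rows, grouped by role) on each of the 9 arrays (columns), as the log2 difference from the mean of the 3 DMSO arrays; blue is lower, red is higher, and colours saturate at ±0.8. The CHIR99021 columns are blue through most rows and evenly so through the lowest block, the AICAR columns mix blue (Plk1, Aurka, Bub3, Cdc20) and red (Cdc25b, Bub1), and Aurkb is red in all 6 treated columns.

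Of the 39 genes, 18 were called with CHIR99021 under every alternative tried, 17 that fell and Aurkb, which rose. Among the 23649 features tested in every setting, 13.9% fell and 15.5% rose under every alternative with CHIR99021, or 29.4% in either direction. The 17 were Hmmr, Nusap1, Prc1, Top2a, Spc24, Ube2c, Ccnb2, Bub1b, Ccnb1, Plk1, Cenpe, Kif2c, Spc25, Cdc20, Tpx2, Incenp and Cdc25b. The alternatives followed a gene's brightest probe or the mean of its probes, not each dimmer probe. A dimmer probe of Ccnb1 and the dimmer probe of Incenp were not called with CHIR99021. With AICAR 14 genes were called under every alternative, 9 that fell (Bub3, Plk1, Aurka, Cdc20, Ube2c, Ndc80, Ccnb1, Kif20b and Kif20a) and 5 that rose (Aurkb, Cdc25b, Kif23, Bub1 and Cenpf), against 15.7% and 23.5% of these features, or 39.2% in either direction. Between the compounds 13 genes were, 11 that were lower in CHIR99021 cells (Cdc25b, Nusap1, Bub1, Hmmr, Prc1, Cenpf, Top2a, Kif23, Spc25, Spc24 and Ttk) and 2 that were higher (Kif20a and Kif20b), against 19.5% and 14.8% of these features, or 34.3% in either direction.

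**Figure D5:**
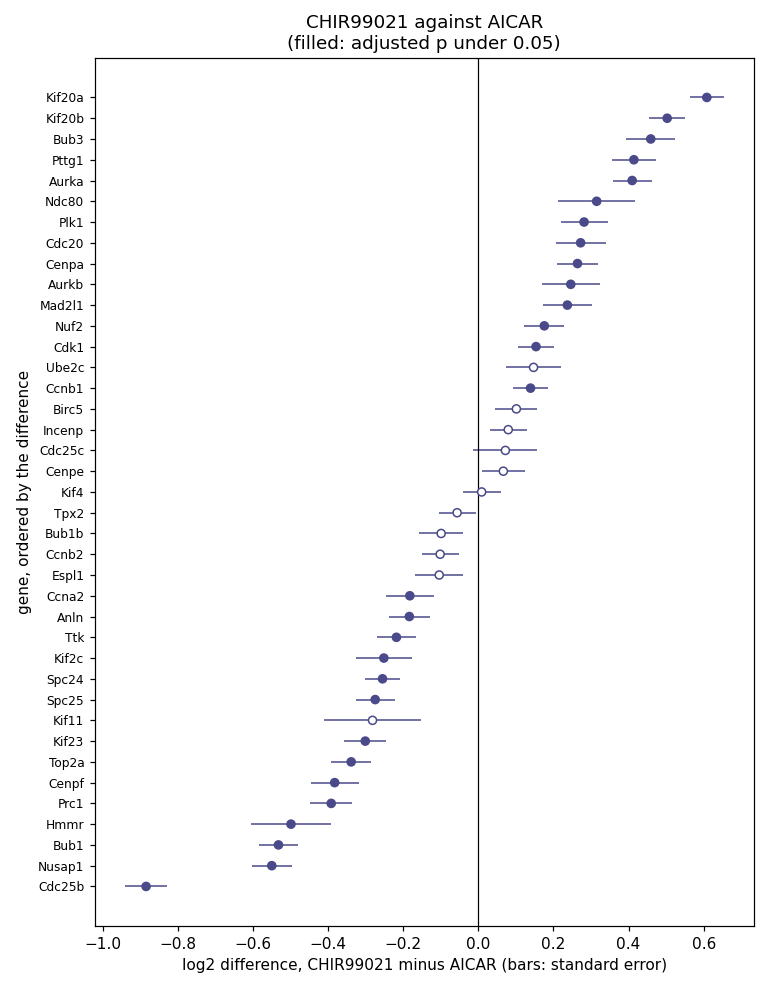
Log2 difference of CHIR99021 minus AICAR cells for each of the 39 mitotic genes (rows, ordered by the difference), with the standard error of the fit (3 arrays a group); filled points have an adjusted p under 0.05. Cdc25b (-0.88) and Kif20a (0.61) stand at the ends, with 14 filled points on each side of 0, a balance that became 6 higher and 21 lower under quantile normalization. Of all features, 7820 were higher and 7634 lower in that setting.

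Another 159 genes of mitosis outside the 39 were listed, of which 157 were tested. With CHIR99021, 25 rose and 40 fell, with a median of -0.02, while over all features 30.4% rose and 20.5% fell. With AICAR, 24 rose and 74 fell, with a median of -0.14 that shrank to -0.03 under quantile normalization, where 35 rose and 57 fell, and to less than 0.01 in size under spike-in scaling, where 26 rose and 31 fell. Over all features 30.9% rose and 29.6% fell with AICAR, and 42.2% of those above the 75th percentile fell. Of all 26866 features, 8518 rose and 7079 fell under quantile normalization, and 9049 and 4343 under spike-in scaling. The percentages also stand beside the counts of the shorter lists below. The CHIR99021 falls among the spindle, centrosome and cytokinesis genes outside the 39 (16 of 39 fell and 4 rose, median -0.14) kept this direction under the 4 other scalings.

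Among those spindle and cytokinesis genes, Ect2, which directs assembly of the contractile ring, fell with CHIR99021 (-0.53 ± 0.04) and with AICAR (-0.59 ± 0.04). Ckap2l, a spindle protein, fell most after it with CHIR99021 (-0.47 ± 0.06), and Aspm, a spindle pole protein, with AICAR (-0.54 ± 0.05). Ckap2l was also called lower with AICAR (-0.24 ± 0.06) and Aspm with CHIR99021 (-0.20 ± 0.05), each call lost under 1 other scaling. The highest rises were those of Kif2a (0.47 ± 0.06), whose probes disagree, and Cep55, the abscission factor (0.41 ± 0.07), with CHIR99021. With AICAR they were those of the spindle kinesin Kif15 (0.36 ± 0.06) and of Kif2a (0.24 ± 0.06).

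Of 33 other centromere and kinetochore genes, 6 rose and 6 fell with CHIR99021, and 4 rose and 18 fell with AICAR (median -0.27, and -0.13 to -0.21 under the other scalings). Ska1, which binds kinetochores to microtubules, fell with AICAR (-0.99 ± 0.06) and with CHIR99021 (-0.23 ± 0.06, lost under 1 other scaling). Cenph rose with both compounds (0.38 ± 0.06 and 0.29 ± 0.06), and Cenpx rose with CHIR99021 (0.51 ± 0.09). Knl1, the scaffold that recruits Bub1, fell with CHIR99021 (-0.47 ± 0.08). Cenpt fell with CHIR99021 (-0.42 ± 0.08) and with AICAR (-0.37 ± 0.08, lost under 1 other scaling). Cenpo was called higher with AICAR (0.22 ± 0.06), but its other probe had a change of -0.34.

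Among 18 APC/C subunits and regulators, 4 rose and 2 fell with CHIR99021, and 2 rose and 7 fell with AICAR. Fzr1, the Cdh1 activator of late mitosis and G1, fell with CHIR99021 (-0.41 ± 0.11) and with AICAR (-0.45 ± 0.11, lost under spike-in scaling), but its other probe had changes of -0.21 and -0.02. Cdc16 (0.31 ± 0.06) and Anapc16 (0.29 ± 0.08) rose with CHIR99021, both calls being lost under spike-in scaling. In addition, Ube2s, which extends ubiquitin chains (0.60 ± 0.21), and Anapc10 (0.54 ± 0.12, and 0.19 under normexp) rose with AICAR. Cdc27 fell with CHIR99021 (-0.35 ± 0.12, but 1.45 in the series matrix) and with AICAR (-1.03 ± 0.10, not called in the series matrix), and its other probe had changes of 0.09 and -0.28. Anapc15 fell with AICAR (-0.55 ± 0.08).

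Of 23 condensin and cohesin genes, 2 rose and 4 fell with CHIR99021, and 2 rose and 10 fell with AICAR. The condensin II subunit Ncaph2 (-0.89 ± 0.04, and -0.19 on its other probe) and the cohesin release factor Wapl (-0.72 ± 0.07) fell with AICAR, and Ncapd3 (0.19 ± 0.06, and 0.07 on its other probe) and the shugoshin Sgo2a (0.27 ± 0.07) rose. With CHIR99021 the cohesin loader Mau2 (-0.39 ± 0.09) and the condensin I subunit Ncapg (-0.33 ± 0.10, lost under spike-in scaling) fell, and the cohesin subunit Stag1 (0.44 ± 0.06) and Sgo2a (0.24 ± 0.07, lost under all 4 other scalings) rose.

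Among 22 other regulators of mitotic entry and exit, 4 rose and 4 fell with CHIR99021, and 6 rose and 9 fell with AICAR. The kinase Pbk rose with both (0.25 ± 0.05, lost under normexp and spike-in scaling, and 0.66 ± 0.05), Cdc25a rose with CHIR99021 (0.21 ± 0.06, lost under spike-in scaling), and Cdca3 rose with AICAR (0.52 ± 0.05). Cdc25a was called lower with AICAR (-0.22 ± 0.06), a call lost under the 4 other scalings. The kinase Nek6 fell with CHIR99021 (-0.56 ± 0.05). Cdca2, which brings a phosphatase to chromatin, fell with CHIR99021 (-0.34 ± 0.06) and with AICAR (-0.51 ± 0.06). Haspin, the kinase of histone H3, fell with AICAR (-0.72 ± 0.07), as did Trip13, which dismantles the checkpoint complex (-0.61 ± 0.05). Haspin also fell with CHIR99021 (-0.27 ± 0.07, lost under 1 other scaling). Wee1, the kinase that opposes Cdc25, was at -0.04 ± 0.07 with CHIR99021 and fell with AICAR (-0.32 ± 0.07), the opposite direction to the AICAR rise of Cdc25b, although the Wee1 call was lost under 1 other scaling.

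Of 22 genes listed for the transcription of cell cycle genes, 5 rose and 8 fell with CHIR99021 and 8 rose and 9 fell with AICAR, with medians of 0.01 in both. The CHIR99021 median turned to -0.06 under quantile normalization and to -0.05 in the series matrix and under spike-in scaling. Foxm1, which works with MuvB and B-Myb on CHR promoters, fell with CHIR99021 (-0.40 ± 0.06, adjusted p = 0.00128) and further with AICAR (-0.82 ± 0.06, adjusted p = 1.85e-05), and both calls held under the other scalings. Mybl2, B-Myb, was called lower with CHIR99021 (-0.23 ± 0.06, lost under spike-in scaling) and was at -0.02 ± 0.06 with AICAR, but its 2 probes had changes of -0.23 and 0.15 with CHIR99021. Lin54, the DNA-binding subunit of MuvB, rose with both compounds, by 0.19 ± 0.06 with CHIR99021, a call lost under 3 scalings, and by 0.71 ± 0.06 with AICAR. Rb1, the retinoblastoma protein that restrains E2F factors, fell with CHIR99021 (-0.67 ± 0.04) and rose with AICAR (0.63 ± 0.04). E2f3, an activating E2F, had the reverse pattern, at 0.49 ± 0.05 with CHIR99021 and -0.72 ± 0.05 with AICAR, and with CHIR99021 E2f4 rose (0.72 ± 0.10) and E2f2 fell (-0.47 ± 0.05). E2f2 also fell with AICAR (-0.31 ± 0.05, lost under 1 other scaling). Mki67, a coat protein of mitotic chromosomes used as a proliferation marker, fell with CHIR99021 (-0.32 ± 0.05, adjusted p = 0.000779) and was at -0.01 ± 0.05 with AICAR (0.19 at most under other scalings).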

How the data were processed

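Total RNA of 9 J1 cell samples, 3 per group, was measured on single-colour (Cy3) Agilent arrays. Scanner output deposited by the authors records spot intensity, untransformed, from Feature Extraction 10.7.3.1 per the file headers, which the submitters' processing notes list as 10.7. A deposited value table, the series matrix, has the authors' log2 values, which correlated with the log2 processed signal at 0.99962 to 0.99999 and had a median of 5.18 on each array. Their centring is unknown here. They gave the same numbers of called mitotic genes as quantile normalization in each comparison, so these 2 should not be read as independent alternatives.

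Processed signals were put on a log2 scale and the 75th percentile of the array's 59305 non-control spots was subtracted. After removal of outlier spots (136 to 192 an array), replicate spots were averaged by probe. The 75th percentile signal was 567 to 617 an array. Probes well above background on at least 3 of 9 arrays were kept (37742 of 55681), and the brightest probe of each gene was tested (26866 features). Probes were named by accession through the RefSeq table of GRCm38.p6 (27235 matched, and 28446 kept their own name). Per the file headers, the build is mm9 for interval features.

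All 9 arrays were fitted together with limma 3.58.1 in R 4.3.3 (lmFit and eBayes, Benjamini-Hochberg adjustment over 26866 features, threshold 0.05). The fit was also run on simulated data with independent noise, which held no slide or scaling effect and so cannot speak to either. Only limma adjusted p-values are printed. Alternatives were normexp background correction with an offset of 50, quantile normalization, the series matrix, spike-in scaling, other probe filters and summaries, fits of 2 groups, a replicate block, and leaving out each array. The files hold no mean signal column, so normexp used the median signals. Spike-in scaling used each spike-in's deviation from its own mean, and that version was chosen after seeing the data.

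The members, gene lists, markers and promoter motifs were chosen with earlier results of these data known. All members are named. Values on every array are given for the 6 largest called changes in each comparison and for the member with the highest mean in each role group. Of each other list, up to 2 called rises and 2 called falls against DMSO are named, besides Foxm1, Mybl2, Lin54, Wee1, Fzr1 and Mki67. The result of 1 gene that this rule names is not reported here.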

Additional observations from a re-analysis of the deposited data

How the results depend on the processing

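With CHIR99021, 18 to 28 of the 39 genes were called lower over all settings, with a median of -0.29 under quantile normalization, -0.28 in the series matrix and -0.30 under spike-in scaling. The rises numbered 2 under normexp, quantile normalization and the series matrix, and 1 under spike-in scaling. Of all features, 8813, 6844, 6803 and 4428 rose in these settings, and 4857, 6399, 6395 and 4699 fell. For AICAR, 9 rose and 12 fell under quantile normalization and in the series matrix, and 5 rose and 9 fell under spike-in scaling. Of all features, 8518, 8561 and 9049 rose and 7079, 7023 and 4343 fell with AICAR in these settings. The AICAR median was -0.15 under normexp and when probes were averaged per gene, and it turned to 0.0014 under quantile normalization, 0.00047 in the series matrix and 0.037 under spike-in scaling. Between CHIR99021 and AICAR, 6 were higher under quantile normalization and in the series matrix and 2 under spike-in scaling, with medians of -0.19, -0.18 and -0.19. Of all features, 7820, 7705 and 4009 were higher in these settings, and 7634, 7646 and 7936 lower.

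Among single AICAR changes, Ccna2 turned to 0.18 under quantile normalization and 0.18 in the series matrix, Spc25 to 0.19 and 0.17, Anln to 0.17 and 0.17, and Spc24 to 0.0014 under quantile normalization. Between the compounds, Cdk1 turned to -0.036, -0.024 and -0.049 under quantile normalization, the series matrix and spike-in scaling, Ccnb1 to -0.073, -0.072 and -0.064, Incenp to -0.16 and -0.14 under the first 2, Cenpe to -0.19 and -0.18 under the first 2, and Nuf2 to -0.027 under spike-in scaling. With CHIR99021, Nuf2 turned to -0.12 with the mean of its probes. The cause was not tested. Spike-in scaling moved the median of all features by 0.14 with AICAR and by -0.20 between the compounds. Among all features it gave 4428 higher and 4699 lower with CHIR99021 (8180 and 5516 in the main setting), 9049 and 4343 with AICAR (8310 and 7942), and 4009 and 7936 between the compounds (9722 and 6606).

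Leaving out each array in turn gave 2 to 4 rises, 20 to 26 falls and a median of -0.24 to -0.21 with CHIR99021. With AICAR it gave 5 rises throughout, 17 to 19 falls and a median of -0.15 to -0.10. Between the compounds 10 to 14 genes were higher and 12 to 14 lower, with a median of -0.0089 to 0.034. Over all features, these fits gave 6986 to 8360 rises and 4675 to 5667 falls with CHIR99021. With AICAR 7451 to 8254 features rose and 7118 to 7904 fell, and between the compounds 8696 to 9546 were higher and 6222 to 6494 lower. Arrays with the same replicate number did not deviate together (correlations of -0.055 to 0.088 over 9 pairs, against -0.13 to 0.11 for other pairs). With 3 arrays a group this cannot tell whether the numbers mark matched samples, and the main fit used no pairing. With the replicate number as a block, 3 rose and 21 fell with CHIR99021, 5 rose and 17 fell with AICAR, and 11 were higher and 13 lower between the compounds. Over all features this block gave 7611 rises and 5100 falls, 7942 rises and 7518 falls, and 9292 higher and 6390 lower. A slide block could not be fitted, because each slide holds 1 group, and the planned plain median of the spike-ins was not run, because it fell between spike-ins of different concentration.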

Other observations

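Genes of DNA replication and S phase act earlier in the cycle. Of 45 tested, 11 rose and 6 fell with CHIR99021, with a median of 0.03, against -0.24 for the 39 mitotic genes, and the replication median was -0.03 under spike-in scaling. With AICAR 5 rose and 16 fell, with a median of -0.10 that turned to 0.06 under quantile normalization and in the series matrix and to 0.04 under spike-in scaling. Over all features, 30.4% rose and 20.5% fell with CHIR99021, and 30.9% rose and 29.6% fell with AICAR. The difference between the lists was not tested. Ccne2, cyclin E2 of S phase entry, rose with CHIR99021 (2.30 ± 0.50) and with AICAR (1.55 ± 0.50), with a wide error and changes of only 0.55 and 0.26 under normexp. The GINS helicase subunits moved apart with CHIR99021, Gins3 rising (0.55 ± 0.11) and Gins2 falling (-0.40 ± 0.07), and Pold1, the catalytic subunit of polymerase delta, fell (-0.47 ± 0.06). Gins2 also fell with AICAR (-0.45 ± 0.07, lost under 1 other scaling). With AICAR, Rrm2, the small subunit of ribonucleotide reductase, rose (0.37 ± 0.05), while the origin recognition subunit Orc2 (-0.80 ± 0.06) and the replication factor Mcm10 (-0.55 ± 0.06) fell. Orc2 was also called lower with CHIR99021 (-0.18 ± 0.06, lost under 1 other scaling).

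Single stem cell markers moved in both directions. With CHIR99021 Esrrb (0.73 ± 0.05) and Zfp42 (0.32 ± 0.08, lost under spike-in scaling) rose and Utf1 (-1.22 ± 0.06) and Tdgf1 (-0.60 ± 0.06) fell. With AICAR Esrrb (0.44 ± 0.05) and Tdgf1 (0.39 ± 0.06) rose and Dppa3 (-1.57 ± 0.08) and Utf1 (-1.16 ± 0.06) fell. Dppa3 was called higher with CHIR99021 (0.31 ± 0.08, lost under 1 other scaling). Zfp42 was called lower with AICAR (-0.31 ± 0.08, lost under 3 other scalings). Among the fibroblast markers, Pdgfrb rose with CHIR99021 (2.13 ± 0.06) and AICAR (2.32 ± 0.06), as did S100a4 (0.47 ± 0.07 and 0.48 ± 0.07). Twist1 rose with AICAR (1.15 ± 0.13, and 0.66 under normexp). The collagen gene Col1a2 fell with CHIR99021 (-0.48 ± 0.05) and AICAR (-1.29 ± 0.05), Mmp2 fell with CHIR99021 (-0.80 ± 0.11), and Dcn fell with AICAR (-2.93 ± 0.45, and -0.38 under normexp).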
